A study of Homo sapiens with 16 samples.

Results

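The comparison set RNA recovered with an antibody against HuR beside RNA recovered with IgG, both from cells given a control siRNA, and asked which transcripts came down with HuR. It used 8 of the 16 single-colour bead arrays of the series. Of 47231 probes, 513 were kept because they were detected (detection p under 0.01, a comparison of the probe with the negative controls of its own array) on all 4 arrays of at least 1 of the groups. With 1 probe for each gene these gave 493 items to test, of which 281 were named genes and 212 were probes that carry no gene name here.

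The first group was the HuR immunoprecipitate (IP) with control siRNA and the second the IgG IP with control siRNA, with 4 arrays each that the series' design text calls biological replicates. All 8 samples came from U2OS, a human osteosarcoma line, which was synchronized in the cell cycle and carried the siRNA for 48 hours before lysis. The labels describe several cell-cycle phases and do not say which was used, and no unprecipitated input was analysed here, so a value is a recovery and not a level in the cell. The RNA was copied from an oligo-dT primer before hybridisation.

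HuR, encoded by ELAVL1, is an RNA-binding protein of the ELAV family that binds uridine-rich and AU-rich stretches, mostly in 3′ untranslated regions and introns. It is known for lengthening the life of bound mRNAs and for altering their translation, and mRNAs of cell-cycle, growth and stress-response proteins are among its described targets. An IgG IP shows which RNA sticks to beads and antibody without HuR.

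The bulk of the probes gave background signal throughout. Taken over all probes, the median intensity was between 46 and 47 on the HuR arrays and between 45 and 47 on the IgG arrays. The HuR arrays reached further above it: their highest intensities were 1014, 1240, 1420 and 770, against 413, 335, 347 and 345 on the IgG arrays. The SD of intensity over all probes averaged 12.3 ± 3.36 on HuR arrays and 4.83 ± 0.49 on IgG arrays (SD, n = 4 each), a gap without overlap that gave the smallest p that 4 against 4 arrays allow in a two-sided exact permutation test (p = 0.0286, adjusted p = 0.0667 over 7 measures). Detected probes numbered 1139 ± 276 on HuR arrays and 915.5 ± 122 on IgG arrays (exact permutation p = 0.229). Quantile normalization, used in the main fit, gives all arrays 1 distribution and so takes away such a difference in spread; each result is therefore given as deposited intensity, as normalized log2 difference, and as unscaled difference (background corrected, log2, with no scaling between arrays). The gene of HuR itself, ELAVL1, was not detected on any of the 8 arrays (45.8 ± 0.957 in HuR IPs, 43.2 ± 3.2 in IgG IPs), and neither was MIR100HG (46.8 ± 4.79 and 46.5 ± 1.91). None of 15 probes for osteoblast and mesenchymal genes was detected on any array, and their summed intensity ran between 680 and 705 in HuR IPs and between 688 and 704 in IgG IPs. None of 8 epithelial and none of 9 blood cell probes was detected either, so the labelled cell type could not be checked from this IP fraction.

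After quantile normalization 234 of the 493 items were higher in HuR IPs (47.5%) and 127 were lower (25.8%), by limma at a Benjamini-Hochberg adjusted p under 0.05. Without scaling 267 were higher (54.2%) and 8 were lower (1.62%). All 234 higher calls were also higher without scaling, whereas 8 of the 127 lower calls were also lower, and 28 of the 127 had the opposite sign. In another setting, median centring, each array was instead centred on its median over the 493 tested items. This takes most of the median difference between the groups away by design, and 274 of the 493 had passed the filter through HuR arrays alone. It gave 182 higher and 196 lower items. The median difference over all items was -0.05, against 0.30 after quantile normalization and 0.65 unscaled. Of the 234 higher calls, 172 were kept while 17 turned sign. The deposited intensities of the groups did not overlap for 231 of the 234 higher items and for 8 of the 127 lower ones. Over all 493 items they did not overlap for 249 with HuR higher (50.5%) and for 8 with HuR lower (1.62%). Calls and separation come from the same values, so neither supports the other. These are differences in recovery from bulk lysates, and neither the number of cells with a transcript nor its level per cell can be read from them.

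The filter shapes these counts. Of the 274 tested items that were detected on all 4 HuR arrays but not on all 4 IgG arrays, 209 were higher, 1 was lower and 64 were neither. Of the 96 that entered through IgG arrays alone, 0 were higher, 61 were lower and 35 were neither by limma; without scaling 0 were higher and 5 were lower. The 123 items detected on all 8 arrays had no such head start: 25 were higher (20.3%) and 65 were lower (52.8%), against 34 higher and 3 lower without scaling. When all 37164 genes and unnamed probes on the array were tested with no filter, 266 were higher (0.716%) and 69 were lower (0.186%). All 513 kept probes, the brightest among them, had a median intensity of 73.5 in HuR IPs and 58.2 in IgG IPs. The 368 probes that missed the filter by 1 array had medians of 58.0 in HuR IPs and 55.6 in IgG IPs.

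**Figure D1:**
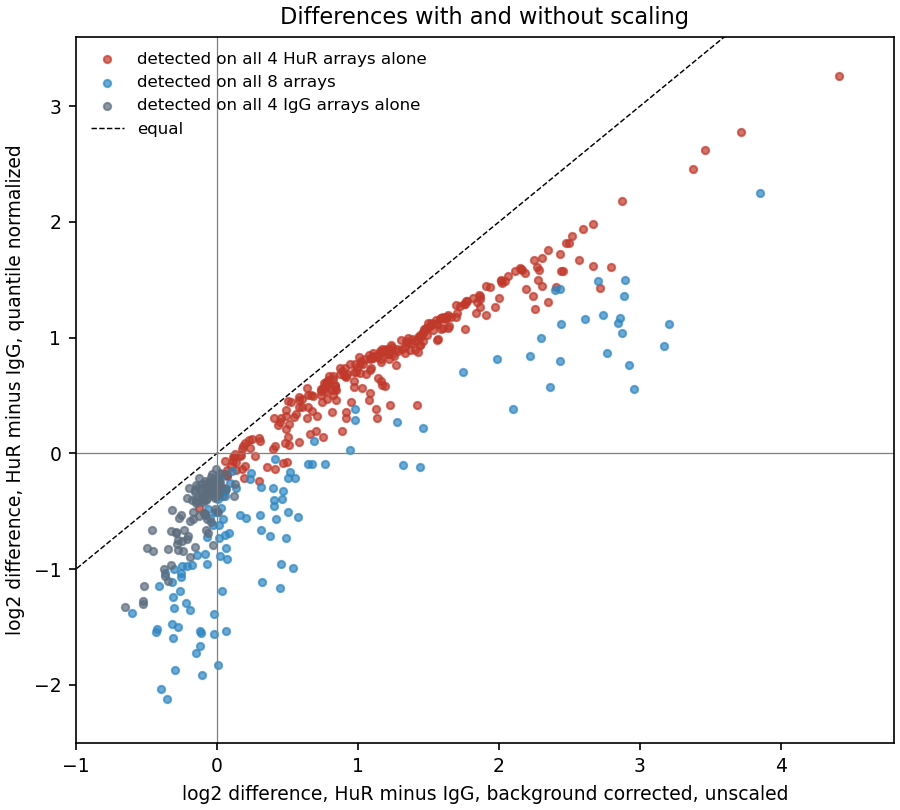
Each of 493 points is a gene or unnamed probe, with its log2 difference (HuR minus IgG) without scaling on the x axis and after quantile normalization on the y axis; colours give the group through which it passed the filter and the dashed line marks equal values. Nearly all points lie below the line, so quantile normalization lowered the differences, and many points detected on all 8 arrays sit near 0 on the x axis and well below 0 on the y axis.

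Single transcripts with large differences are described first. ITGB1, the integrin beta-1 subunit that anchors cells to matrix, had intensities of 525, 773, 580 and 247 in HuR IPs, against 52, 54, 48 and 55 in IgG IPs. The lowest HuR array lay above every IgG array, and the log2 difference was 3.26 ± 0.14 after normalization (SE, limma adjusted p = 1.65e-07) and 4.41 unscaled. Of its other 3 probes, 1 averaged 60.2 in HuR IPs and 47.2 in IgG IPs and was detected on 3 HuR arrays, and the rest were detected on none of the 8 arrays. ACTB, cytoplasmic beta-actin and a described HuR target, had 441, 709, 960 and 337 in HuR IPs, against 87, 66, 56 and 71 in IgG IPs. Its difference was 2.25 ± 0.25 (limma adjusted p = 2.49e-05) and 3.85 unscaled, and it was detected on all 8 arrays. POTEF, a POTE-actin family gene with a close sequence relation to actin, also rose by 2.78, and whether its probe also takes up ACTB RNA was not tested; POTEF was chosen after its values were seen.

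PCBP2, a poly(C)-binding protein that itself regulates mRNA stability, had 199, 311, 397 and 186 in HuR IPs, against 52, 52, 47 and 59 in IgG IPs. The groups did not overlap, and the difference was 2.46 ± 0.19 (limma adjusted p = 3.94e-06). CCND2, the G1 cyclin D2 and a described HuR target, had 215, 307, 308 and 140 in HuR IPs, against 46, 45, 42 and 38 in IgG IPs. No IgG array detected it at p under 0.05, so its recovery is a bound: at least 4.33-fold higher in HuR IPs on the normalized scale (limma adjusted p = 1.65e-07). CDH2, N-cadherin of cell-cell junctions, had 168, 201, 194 and 108 in HuR IPs, against 38, 43, 44 and 44 in IgG IPs, and was at least 3.17-fold higher. JUND, a subunit of the AP-1 transcription factor and a described HuR target, had 131, 194, 183 and 127 in HuR IPs, against 51, 46, 51 and 45 in IgG IPs, and was at least 3.04-fold higher (limma adjusted p = 5.12e-07). For each of these genes all 4 HuR arrays lay above all 4 IgG arrays, as for 249 of all 493 items (50.5%). PCBP2, CCND2, CDH2 and JUND, and ITGB1 before them, passed the filter through HuR arrays alone. Their direction was therefore largely set by the filter.

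**Figure D2:**
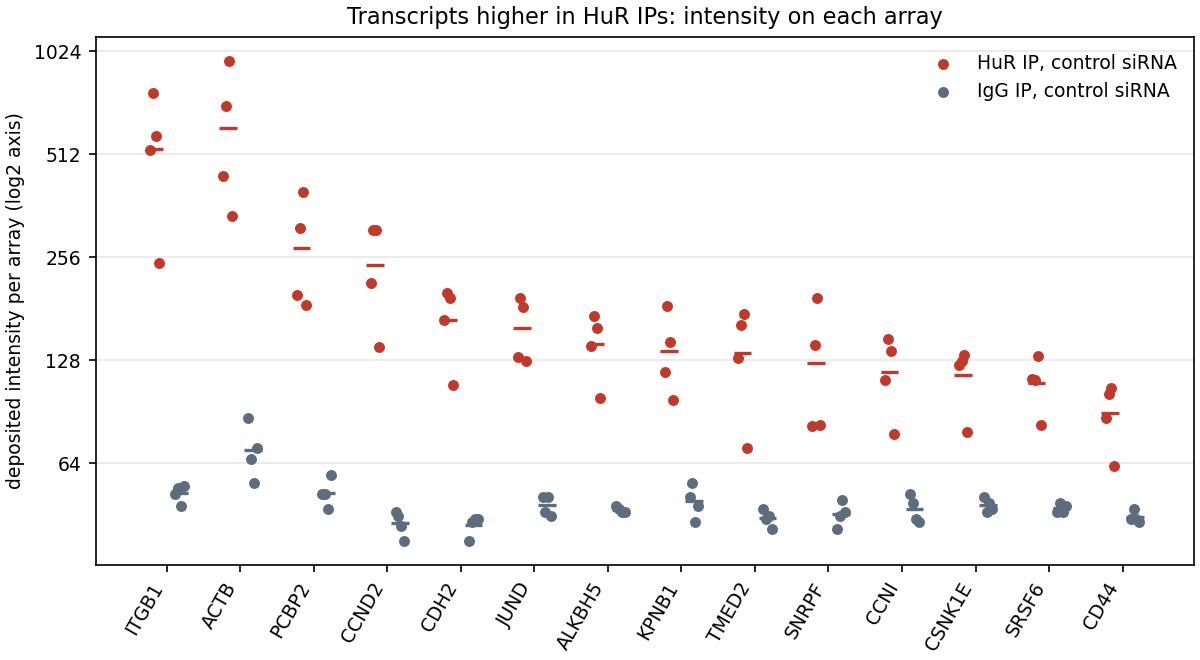
Points are deposited intensities on single arrays (log2 axis) for 14 transcripts that were higher in HuR IPs, and bars are group means. HuR arrays lie above IgG arrays for every gene plotted, with ITGB1 between 247 and 773 in HuR IPs and between 48 and 55 in IgG IPs.

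Other transcripts with no IgG detection at p under 0.05, which had therefore passed the filter through HuR arrays alone, had large bounds. DCBLD2, a membrane receptor-like protein, had 137, 207, 155 and 94 in HuR IPs, against 45, 45, 38 and 47 in IgG IPs, and was at least 2.72-fold higher. ALKBH5, an RNA demethylase that removes N6-methyladenosine, had 141, 172, 159 and 99 in HuR IPs, against 48, 47, 46 and 46 in IgG IPs, and was at least 2.71-fold higher. The vesicle coat cargo receptor TMED2 was at least 2.41-fold higher, the adaptor protein CRKL at least 2.36-fold and the chromatin protein NUCKS1 at least 2.35-fold (limma adjusted p between 9.7e-07 and 9.29e-06).

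HuR replicate 4 gave the lowest HuR value for 206 of the 234 higher items, and HuR replicate 2 the highest for 133. IgG replicate 1 gave the highest IgG value for 113 of the 234 higher items and for 97 of the 127 lower ones. Leaving out any 1 array kept the number of higher items between 223 and 248.

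The 234 higher items were 161 named genes and 73 unnamed probes, with a median log2 difference of 0.95 after normalization, 1.44 unscaled and a median intensity ratio of 1.77. Of the 161, 68 belonged to a functional list and 93 to none. The 127 lower items were 49 named genes and 78 unnamed probes, with a median of -0.73 after normalization, -0.14 unscaled and a median intensity ratio of 0.944. Among the named genes tested, 255 were protein-coding, of which 150 rose and 46 fell.

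From the genes in no list, 3 more were chosen after their values were seen. PLOD2, a lysyl hydroxylase that modifies collagen, had 150, 214, 192 and 102 in HuR IPs, against 55, 54, 54 and 56 in IgG IPs, and rose by 1.73 ± 0.12 (2.43 unscaled). SERPINE2, a secreted inhibitor of serine proteases, was at least 1.82-fold higher, with 86, 115, 119 and 72 in HuR IPs, against 51, 43, 45 and 43 in IgG IPs. MSH3, a mismatch repair protein, had 314, 358, 292 and 202 in HuR IPs, against 99, 65, 74 and 63 in IgG IPs, and rose by 1.16 ± 0.18 (2.61 unscaled). The other probes of PLOD2 and MSH3 were detected on none of the 8 arrays.

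Probe identity is a limit for some of the rises. Of 161 named genes called higher, 105 had more than 1 probe, with 164 other probes between them. In 12 of the 105 another probe was also detected on all 4 arrays of a group, and the 13 such other probes, all detected on the 4 HuR arrays and not on all IgG arrays, were higher in HuR IPs, a direction that this detection largely fixes. In 69 of the 105 (65.7%) no other probe was detected on any of the 8 arrays. ACTB, for example, had 3 probes that rose, by 2.25, 3.39 and 0.78 on the normalized log2 scale, and the second probe of PCBP2 rose by 1.62. The second AXL probe, for a receptor tyrosine kinase, rose by 1.64 beside 1.82 for its first; AXL was chosen after its values were seen.

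The rises detected in both groups include several with other probes at background. ORC6, a subunit of the origin recognition complex that marks sites of DNA replication, had 179, 244, 234 and 141 in HuR IPs, against 81, 59, 60 and 55 in IgG IPs, with a difference of 1.43 ± 0.21 (limma adjusted p = 0.000142) and 2.41 unscaled. PCLAF, a PCNA-associated factor, had 362, 431, 329 and 221 in HuR IPs, against 105, 60, 70 and 63 in IgG IPs, and differed by 1.50 ± 0.24. FARSB, a phenylalanyl-tRNA synthetase subunit, rose by 1.58 ± 0.12, the matrix protein ITIH5 by 1.49 ± 0.15, FAM177A1 by 1.43 ± 0.32, the chemokine receptor CCR6 by 1.42 ± 0.21, SHCBP1 by 1.27 ± 0.18 and GABPB2 by 1.22 ± 0.12. The other probes of ORC6, PCLAF, FARSB, ITIH5, FAM177A1, CCR6, SHCBP1 and GABPB2 were detected on none of the 8 arrays.

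LAIR1, an inhibitory immune receptor, gave the highest mean of the probes that stand for named genes in both groups, with 1014, 1240, 1275 and 770 in HuR IPs, against 203, 122, 135 and 136 in IgG IPs. The second LAIR1 probe averaged 42.8 ± 2.22 in HuR IPs and 44.5 ± 1.29 in IgG IPs. The probes of 2 other immune receptors, LILRB1 and LILRB3, rose by 0.92 and 1.19 on the normalized log2 scale, and each had another probe at background. LAIR1, LILRB1 and LILRB3 were chosen after their values were seen. CLUAP1 had 728, 901, 986 and 506 in HuR IPs, against 165, 112, 119 and 113 in IgG IPs, and F2R, the thrombin receptor, had 406, 588, 604 and 328 in HuR IPs, against 111, 86, 96 and 77 in IgG IPs. Their differences were 0.56 and 1.04 after normalization, and 2.96 and 2.87 unscaled; both genes were chosen after their values were seen. The 9 blood cell marker probes were at background in both groups, and what these single probes measured was not tested.

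**Figure D3:**
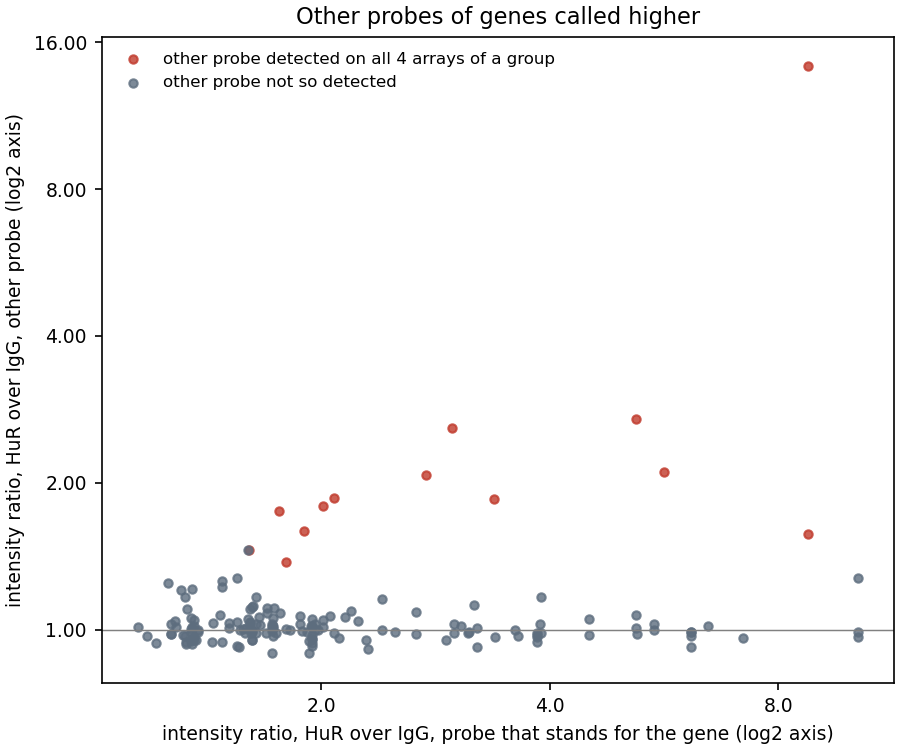
Each point is another probe of a gene called higher, with the HuR over IgG intensity ratio of the probe that stands for the gene on the x axis and of the other probe on the y axis (log2 axes); red marks other probes detected on all 4 arrays of a group. The 13 red points lie above a ratio of 1, while most other points lie near 1 whatever the x value.

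By functional class, lists of genes were described by counts and medians, beside a median difference of 0.30 over all 493 items (0.65 unscaled). Members of a list were tested only if they passed the filter, and each count holds for those members alone. Over all 493 items 47.5% were called higher and 25.8% lower. Every tested member of the cyclin, p53 and apoptosis, transcription factor and noncoding RNA lists passed the filter through HuR arrays alone. Where a member passed through the HuR arrays alone its direction was largely set by the filter (209 of 274 such items were called higher), so nothing is read from a count of such members. Under median centring some list members called higher no longer passed: RBM15, G3BP2, CASP2, PRIM2, BUB3, CEBPB, ZNF266, ZNF486, ZNF549, MARCHF2, SUMO2, COX16 and SLC25A51 stayed above 0, and ZNF273, DUSP19, SLC44A1 and LINC01018 turned to -0.21, -0.10, -0.29 and -0.17. Among described HuR targets, 4 of the 50 genes on the array were tested, namely ACTB, CCND2, JUND and CASP2, and these 4 rose, 3 of them having passed the filter through HuR arrays alone (median 2.12 normalized and 3.07 unscaled). CASP2, a caspase of the apoptotic response, had 76, 71, 62 and 66 in HuR IPs, against 48, 47, 43 and 44 in IgG IPs, and was at least 1.29-fold higher. With no filter 5 of the 50 were higher (10.0%, against 0.716% of all items). Other lists also passed that share, such as DNA replication (5.88%) and translation factors (5.41%). On the array 43756 probes were detected on no array of either group, and the lists were chosen with earlier results known. No enrichment of described targets is therefore read from this share.

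Among cyclins and their kinases the tested genes were CCND2 and CCNI, and both rose. CCNI, cyclin I, had 112, 148, 136 and 78 in HuR IPs, against 52, 49, 44 and 43 in IgG IPs, and was at least 2.23-fold higher (limma adjusted p = 2.46e-06). Of 5 tested DNA replication genes, 4 rose and 1, RTEL1, fell. ORC6 and PCLAF are given above, the chromatin regulator UHRF1 was at least 1.61-fold higher and the primase subunit PRIM2 at least 1.25-fold higher. Of 3 tested mitosis genes 2 rose. UBE2C, a ubiquitin conjugating enzyme that works with the anaphase-promoting complex, was at least 1.79-fold higher, and BUB3, a spindle checkpoint protein, rose by 0.56 ± 0.10. PTTG1, the securin, differed by -0.37 and did not pass. In the p53 and apoptosis list CASP2 and ZMAT3, a p53-induced zinc finger protein, rose, ZMAT3 by 0.90 ± 0.15, and BAX differed by 0.32 without passing.

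Of 5 tested adhesion genes, 4 rose: ITGB1, CDH2, ITIH5 and CD44. CD44, the hyaluronan receptor, had 87, 102, 106 and 63 in HuR IPs, against 44, 47, 44 and 43 in IgG IPs, and was at least 1.62-fold higher. PCDHB14 differed by -0.24 and did not pass. Of 10 tested actin cytoskeleton genes, 7 rose, 2 fell and 1 did not pass, with a median of 1.01 (1.72 unscaled). Besides ACTB, the calponin CNN3 was at least 1.88-fold higher and EZR, which links actin to the membrane, at least 1.73-fold higher. TMSB10, a thymosin that binds actin monomers, fell by 1.27, with 56, 67, 68 and 54 in HuR IPs, against 88, 73, 70 and 67 in IgG IPs; its adjusted p was 9.29e-06 in limma and 0.05 without scaling. TMSB4X, a second thymosin chosen after its values were seen, had 252, 399, 460 and 188 in HuR IPs, against 108, 97, 84 and 94 in IgG IPs, and rose by 0.39 (2.10 unscaled).

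Of 3 tubulin and motor genes tested, the pseudogene TUBA3FP rose by 1.62 ± 0.26. TUBA1A, an alpha-tubulin, fell by 0.99 ± 0.34 (limma adjusted p = 0.0252) after normalization; it had 63, 75, 62 and 54 in HuR IPs, against 103, 82, 55 and 64 in IgG IPs, which overlap, and lost the call when HuR replicate 3, HuR replicate 4, IgG replicate 1 or IgG replicate 2 was left out (adjusted p between 0.0552 and 0.0776).

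Of 493 ZNF zinc finger genes on the array 8 were tested, 7 of which had passed the filter through HuR arrays alone. They were called higher after quantile normalization and without scaling, and 4 of them lost the call with median centring, where ZNF273 turned to -0.21. With no filter 1.62% of the 493 were higher, against 0.716% of all items, a share that several other lists also passed. ZNF674 had 194, 257, 289 and 163 in HuR IPs, against 71, 61, 67 and 68 in IgG IPs, and differed by 1.12 ± 0.16 (2.44 unscaled). ZNF22 rose by 0.98 on 1 probe and 0.96 on another, ZNF430 rose by 0.86, and ZNF549 and ZNF266 were at least 1.16-fold and 1.17-fold higher. Of the 4 tested genes for immediate early and growth transcription factors, JUND, CREB1 and CEBPB rose. CREB1, the cAMP-response factor, rose by 0.90 ± 0.10 on 1 probe and CEBPB was at least 1.15-fold higher, while SP3 differed by -0.11 and did not pass. Another CREB1 probe, detected on 3 IgG arrays and 1 HuR array, averaged 54.5 in HuR IPs and 57.2 in IgG IPs (-0.23 normalized). Its remaining probes were each detected on at most 1 array.

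Among RNA-binding and decay factors, 4 of 5 tested rose, and these 4 had passed the filter through HuR arrays alone. PCBP1, a close relative of PCBP2, had 101, 115, 132 and 77 in HuR IPs, against 50, 48, 46 and 41 in IgG IPs, and was at least 2.00-fold higher. YBX3, a cold-shock domain protein, rose by 1.04 ± 0.10 and G3BP2, a stress granule protein, by 0.46 ± 0.12. Of 6 tested splicing factors, SRSF6, SNRPF and RBM15 rose and SNRPD2, a core protein of the spliceosomal particles, fell, while HNRNPK differed by -0.32 and SNRPG by 0.21 without passing. RBM15 rose by 0.71 ± 0.12, and SNRPD2 fell by 0.66 (-0.08 unscaled). SRSF6, a serine-arginine splicing regulator, had 113, 112, 132 and 83 in HuR IPs, against 46, 49, 46 and 48 in IgG IPs, and was at least 2.09-fold higher. SNRPF was at least 2.23-fold higher, with 82, 142, 194 and 83 in HuR IPs, against 41, 45, 50 and 46 in IgG IPs.

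Of the 6 signalling genes, 5 rose, and these 5 had passed the filter through HuR arrays alone. CSNK1E, a casein kinase of the circadian clock, was at least 2.21-fold higher, and YWHAZ, a 14-3-3 adaptor, had 101, 107, 159 and 75 in HuR IPs, against 49, 44, 44 and 39 in IgG IPs, at least 2.02-fold higher. PRKAR1A, the regulatory subunit of protein kinase A, rose by 1.29 ± 0.11 and by 1.05 on its second probe. PRKCQ, protein kinase C theta, fell by 0.40 after normalization (limma adjusted p = 0.00921; unscaled adjusted p = 0.23). The 3 tested nuclear transport genes of 68 on the array, which passed the filter through HuR arrays alone, were called higher. KPNA4, an importin alpha, was at least 1.92-fold higher with 99, 125, 116 and 70 in HuR IPs, against 42, 46, 44 and 42 in IgG IPs. KPNB1, importin beta, rose by 1.69 ± 0.13 with 118, 184, 145 and 98 in HuR IPs, against 51, 56, 43 and 48 in IgG IPs, and RANBP1, which binds Ran, rose by 0.90 ± 0.12.

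The tested chaperones, ubiquitin factors and solute carriers (4, 4 and 5 genes) were called higher, and all but 1 of them, a solute carrier, had passed the filter through HuR arrays alone; SLC44A1 turned to -0.29 under median centring. DNAJA2 was at least 1.62-fold higher, the cyclophilin PPID at least 1.39-fold, the co-chaperones DNAJC28 and DNAJB11 rose by 1.00 and 0.79, and UBE2E2, a ubiquitin conjugating enzyme, by 1.02 ± 0.13. SUMO2, a ubiquitin-like modifier, was at least 1.18-fold higher and MARCHF2, a membrane ubiquitin ligase, rose by 0.55. The choline transporter-like protein SLC44A4 rose by 1.17, SLC16A12 by 0.89 and SLC7A5P2, a pseudogene, by 0.76, and SLC25A51 was at least 1.24-fold higher. The SLC7A5P2 probe had 510, 685, 664 and 401 in HuR IPs, against 140, 90, 99 and 84 in IgG IPs, with an unscaled difference of 2.92. In membrane trafficking TMED2 and TRAM1 (1.16 ± 0.13), which helps proteins into the endoplasmic reticulum, rose and AP2S1, of the clathrin adaptor, fell by 0.39 (limma adjusted p = 0.0422; unscaled adjusted p = 0.336). Among histone and chromatin genes HMGN2, a nucleosome-binding protein, rose by 1.12 ± 0.11 and H2AZ1, a histone variant, fell by 0.74 (unscaled adjusted p = 0.506).

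Among noncoding RNAs, 4 of 7 tested were higher, against 47.5% of all items. All 7 had passed the filter through HuR arrays alone, so nothing is read from this count. RN7SL1, the RNA of the signal recognition particle, had 212, 231, 199 and 142 in HuR IPs, against 75, 53, 59 and 52 in IgG IPs, with a difference of 1.67 ± 0.25 (limma adjusted p = 0.000168). SNHG10, a small nucleolar RNA host gene, rose by 1.36 ± 0.12 and the antisense RNA RAMP2-AS1 by 0.77. LINC01018 was at least 1.09-fold higher after quantile normalization and its sign turned with median centring (-0.17). SNHG3 differed by 0.07 and did not pass. The median of the list was 0.44, and -0.17 with median centring.

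**Figure D4:**
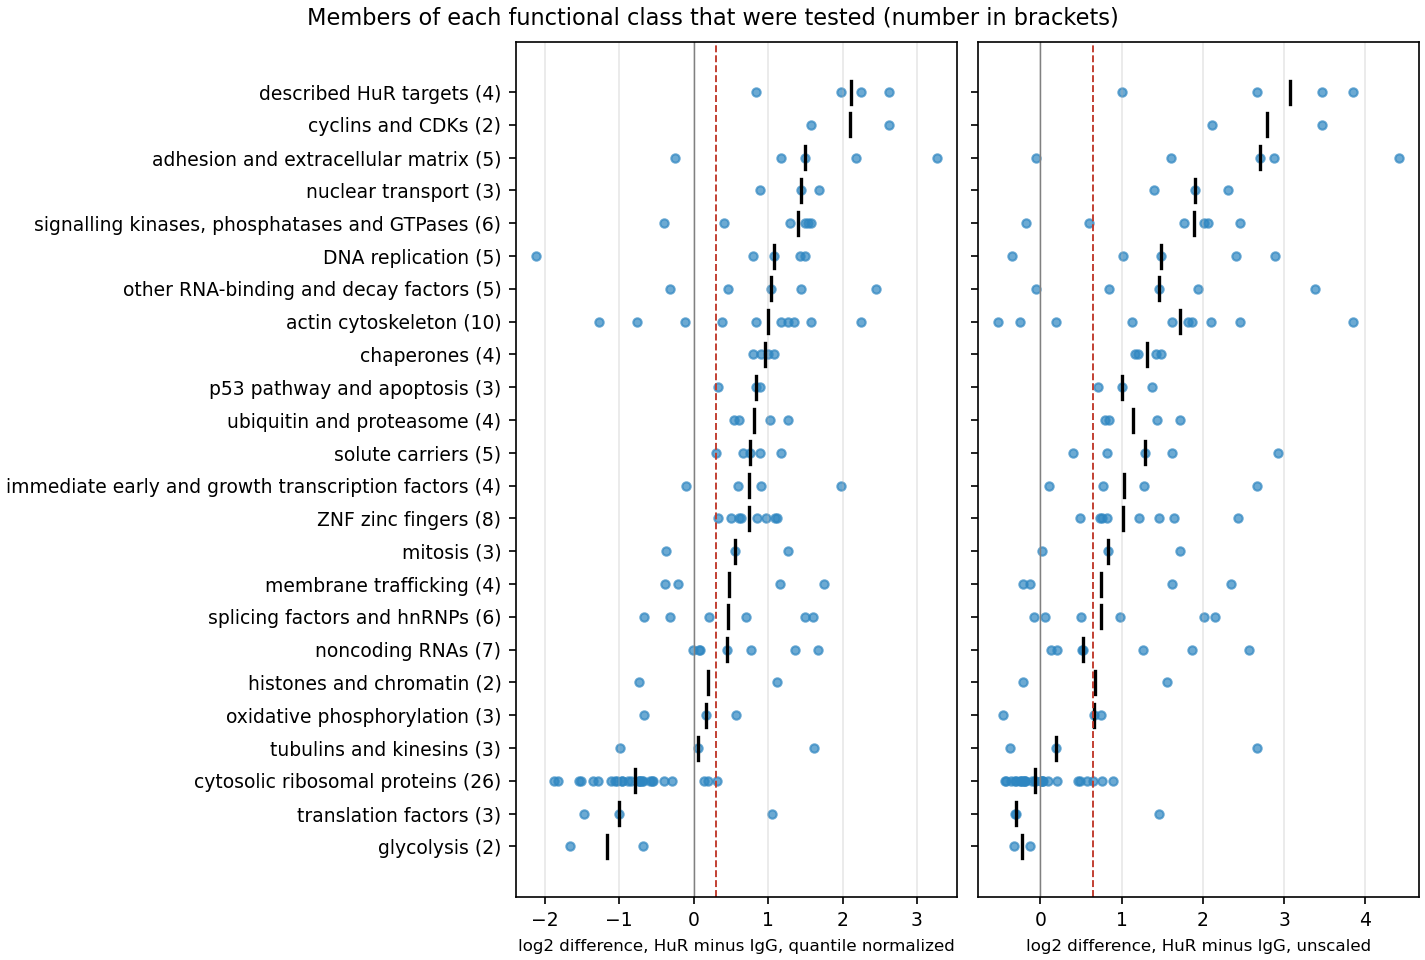
Points are the tested members of each functional class, with the number in brackets; the left panel gives log2 differences after quantile normalization and the right panel without scaling, black bars are class medians and the dashed line is the median of all 493 items. The class medians of ribosomal proteins (-0.79), translation factors and glycolysis lie below 0 on the left and nearer to 0 on the right, while described HuR targets have the highest medians in both panels.

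Ribosomal protein mRNAs lay lower in HuR IPs after quantile normalization, and their deposited intensities overlapped between the groups. Of 76 cytosolic ribosomal protein genes on the array, 26 were tested: 0 rose, 21 fell and 5 did not pass after quantile normalization, with a median of -0.79 (0.30 over all items). Without scaling 3 rose, 0 fell and 23 did not pass, with a median of -0.06 against 0.65 over all items. The median intensity over the 26 genes was 66.5, 81.5, 89.0 and 61.5 in HuR IPs, against 88.0, 71.0, 65.0 and 69.5 in IgG IPs, and in none of the 26 did the groups' intensities separate. With no filter 0 of the 76 were higher and 11 were lower, against 0.716% and 0.186% of all items. Most of all items were at background, so nothing is read from setting these shares side by side. The unscaled median crossed 0 when HuR replicate 1 (0.03), HuR replicate 4 (0.10) or IgG replicate 1 (0.09) was left out, so its direction rests on those arrays.

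Ribosomal protein and elongation factor mRNAs often begin with a run of pyrimidines at the 5′ end, the terminal oligopyrimidine tract, through which their translation is set as a group. Capitals mark a run of at least 8 C or T in the 15 bases before to 15 bases after the annotated start, from RefSeq (GRCh38.p14); these are shown to compare the starts of genes lower and higher after normalization, RPS29 being a ribosomal protein gene without such a run and PCBP2 a gene called higher with one. They lie at chr12:56116618-56116647 (RPL41, plus strand), chr6:132814554-132814583 (RPS12, plus), chr19:39435935-39435964 (RPS16, minus), chr10:78033848-78033877 (RPS24, plus), chr14:49598696-49598725 (RPS29, minus), chr6:73521018-73521047 (EEF1A1, minus), chr12:6535249-6535278 (GAPDH, plus), chr10:32958216-32958245 (ITGB1, minus), chr12:53452087-53452116 (PCBP2, plus) and chr19:18281608-18281637 (JUND, minus).
RPL41: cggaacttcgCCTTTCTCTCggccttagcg
RPS12: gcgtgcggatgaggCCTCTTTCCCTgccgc
RPS16: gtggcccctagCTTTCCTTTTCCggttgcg
RPS24: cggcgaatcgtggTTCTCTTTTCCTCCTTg
RPS29: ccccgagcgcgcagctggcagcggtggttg
EEF1A1: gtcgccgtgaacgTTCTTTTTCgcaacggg
GAPDH: agcgggtgcatccctgtccggatgctgcgc
ITGB1: cacccgggaggccccgccagcccgcgggag
PCBP2: ccgccccgTCCCCCTCCCagaccagcagag
JUND: caagtggcgcggcgcaggagccgccgccag
A run was present in 18 of 24 tested ribosomal protein genes with a sequence (75.0%), in 2 of 23 other named genes called lower (8.7%) and in 17 of 130 called higher (13.1%), against 3647 of 27305 starts in the whole table (13.4%). The window reaches before the start, so a marked run can lie partly outside the mRNA and is not always a terminal tract. The run began at position -7 for PCBP2 and -5 for RPL41, against -1 for RPS12 and -2 for RPS24. These are descriptions of letters at annotated starts, and no binding by HuR is read from them.

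RPL41 had 81, 129, 135 and 88 in HuR IPs, against 164, 129, 93 and 114 in IgG IPs, with a normalized difference of -1.88 ± 0.22 (limma adjusted p = 4.29e-05) and an unscaled one of -0.30 (adjusted p = 0.441). RPS29 had 101, 155, 200 and 121 in HuR IPs, against 187, 124, 114 and 139 in IgG IPs, -1.82 normalized and 0.01 unscaled. The groups overlapped for both genes. RPS16, RPS12, RPS24 and RPS19 fell by 1.54, 1.52, 1.35 and 1.29 after normalization, and their unscaled adjusted p-values were 0.169, 0.291, 0.582 and 0.579. EEF1A1, which delivers aminoacyl-tRNAs to the ribosome, had 82, 82, 101 and 67 in HuR IPs, against 120, 99, 72 and 95 in IgG IPs (-1.47 normalized, -0.32 unscaled with an adjusted p of 0.343). A second EEF1A1 probe, detected on all 8 arrays, averaged 67.0 in both groups. It differed by -0.45 after normalization and did not pass (limma adjusted p = 0.121 over all kept probes). Of 3 tested translation genes 1 rose and 2, EEF1A1 and TPT1, fell on the probes that stand for them. TPT1, a growth-related protein, fell by 1.00 after normalization (-0.31 unscaled). EIF4G2, a translation initiation factor related to eIF4G, rose by 1.05 ± 0.13, with 82, 119, 88 and 69 in HuR IPs, against 56, 48, 46 and 49 in IgG IPs.

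Both tested glycolysis genes fell after normalization, and neither passed unscaled. GAPDH had 110, 112, 104 and 107 in HuR IPs, against 124, 127, 113 and 100 in IgG IPs, with -1.66 ± 0.21 normalized and -0.12 unscaled (adjusted p = 0.493). LDHA, lactate dehydrogenase A, had 51, 56, 54 and 56 in HuR IPs, against 60, 65, 56 and 63 in IgG IPs, with -0.67 normalized (limma adjusted p = 0.0119) and -0.32 unscaled (0.0578). In the oxidative phosphorylation list COX16 was at least 1.16-fold higher, CHCHD2 was lower and ATP5F1EP2 differed by 0.17 without passing. Of 77 mitochondrial ribosomal protein genes on the array, 0 passed the filter.

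Of the 8 items lower without scaling, the named genes were RTEL1 and CHCHD2, which were chosen by the rule for named genes, and the rest were unnamed probes. RTEL1, a helicase that guards telomeres, had 118, 138, 113 and 118 in HuR IPs, against 157, 154, 142 and 135 in IgG IPs, with a normalized difference of -2.12 ± 0.20 (limma adjusted p = 9.43e-06) and -0.35 unscaled (adjusted p = 0.0399); its 138 on HuR replicate 2 lies above the lowest IgG array, and its other probes were at background. CHCHD2, a mitochondrial protein, had 44, 52, 48 and 48 in HuR IPs, against 60, 59, 55 and 61 in IgG IPs, and was at least 1.24-fold lower (limma adjusted p = 0.00201), with an unscaled difference of -0.46 (adjusted p = 0.00593) and no overlap of intensities.

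**Figure D5:**
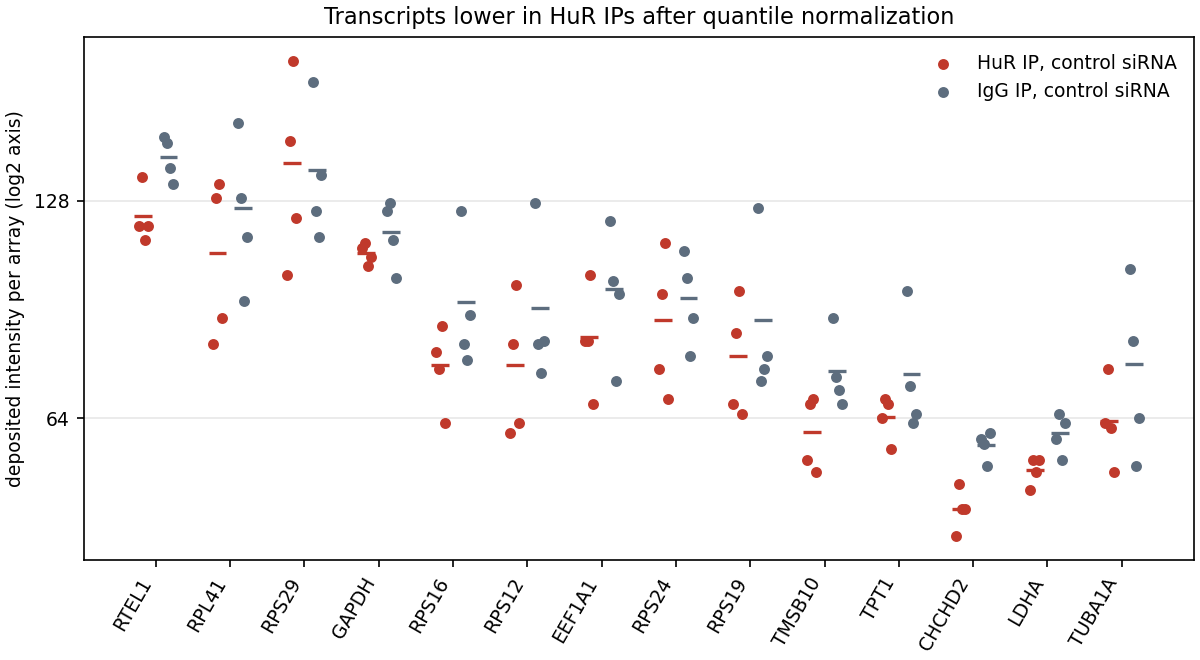
Points are deposited intensities on single arrays (log2 axis) for 14 transcripts lower in HuR IPs after quantile normalization, and bars are group means. HuR and IgG arrays overlap for most of them, and CHCHD2 is lower on all 4 HuR arrays (44 to 52) than on any IgG array (55 to 61).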

How the data were processed

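RNA from 4 HuR and 4 IgG immunoprecipitates with control siRNA was measured on single-colour bead arrays. The submitters' processing notes name GenomeStudio 2011.1. The deposited intensity of a probe is on a linear scale and was not normalized by the authors, as the name of their table states. Beside it stands a deposited detection p-value, per the file headers. A second deposited table gives each probe a score with mean 0 and equal spread within each array, made by steps not named in these sources; across probes it correlated with log2 intensity of the same array at 0.9975 to 0.99888, and it served as an alternative. The platform annotation pairs 30113 of the 47231 probes with a single gene, 8 with several, and the remaining 17110 are unnamed here.

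Values were background corrected with normexp by detection p-values (offset 16), quantile normalized and log2 transformed with neqc in limma 3.58.1 (R 4.3.3). The test was lmFit, contrasts.fit and eBayes over the 8 arrays, with Benjamini-Hochberg adjustment over 493 items at 0.05; genes with several probes were represented by the probe with the highest mean normalized log2 value over the 8 arrays. Where no array of a group detected a probe at p under 0.05, each of its values in that group was set no lower than the weakest detected signal on the same array, and folds are bounds. On simulated data over 493 genes the fit recovered 78%, 96%, 100% and 100% of changes of 0.5, 1, 2 and 3 on the log2 scale, and 2.6% of calls were unchanged genes. These values were drawn on the log2 scale and went straight into the fit. Background correction, normalization and the filter were therefore not covered, and no error rate of the calls above is read from them. Arrays of a group shared between 9.29% and 10.7% of intensities, so none was counted as a duplicate. The number of arrays limits the precision.

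The members and gene lists were chosen with earlier results of these data known. Named genes were those with the largest difference (at most 12 rises and 10 falls), detected in both groups and without overlap of normalized values; those with the largest bound (at most 8 rises and 4 falls); up to 4 members of each of 28 lists past the threshold, or 2 if none passed; and ELAVL1 and MIR100HG; one gene that the rule names is not reported here. Alternatives covered scaling, background, scores, filter, probes per gene, array weights, trend, fold threshold, all 16 arrays, a block for the replicate number, and fits without each array; unscaled fits without each array were chosen after seeing the data. Same-numbered arrays' deviations correlated at -0.02, 0.03, -0.12 and 0.05, and different-numbered ones at -0.19 to 0.23. Such values cannot tell whether same-numbered IPs came from the same lysate, and the main fit did not pair them. The figures were drawn with matplotlib 3.10.9.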

Additional observations from a re-analysis of the deposited data

Results flagged for a closer look

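Of 176 groups of 4 arrays, 14 had 1 array far from the other 3 (the gap to the nearest array divided by the range, above Dixon's limit at the 95% level, which about 1 in 20 groups pass by chance). On the normalized log2 scale HuR replicate 4 was low for TMED2 at 5.42 (others 6.08 to 6.16), CD44 at 5.10 (5.42 to 5.48), CCR6 at 6.54 (6.64 to 6.65) and H2AZ1 at 4.16 (4.82 to 4.89). HuR replicate 2 was high for ORC6 at 6.64 (6.54 to 6.55) and KPNB1 at 6.28 (5.95 to 5.99), and HuR replicate 1 was low for RPL41 at 5.35 (5.79 to 5.87). Among IgG arrays, replicate 4 was high for PCBP2 at 5.04 (4.27 to 4.38) and low for H2AZ1 at 5.04 (5.54 to 5.56) and CEBPB at 4.20 (others 4.30), replicate 1 was high for ZMAT3 at 5.04 (4.34 to 4.43) and replicate 3 for MARCHF2 at 4.91 (4.34 to 4.43). Over all probes the median intensity was 47 on HuR replicate 2 and 46 on the other HuR arrays, and the highest intensity was 413 on IgG replicate 1, against 335 to 347 on the other IgG arrays.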

How the results depend on the processing

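Higher calls numbered 234 and stayed within 1.5 times of it in all settings but 1: among probes detected on all 8 arrays there were 23. Lower calls numbered 127, and 8 without scaling, 9 on log2 intensity, 196 with median centring, 71 with the deposited scores, 70 with all 16 arrays, 63 on all 8 arrays, 69 with no filter and 47 with a fold threshold; without scaling, leaving out 1 array gave 3 to 9 (3, 9, 9 and 6 without HuR replicates 1 to 4, and 3, 5, 8 and 6 without IgG replicates 1 to 4). Leaving out 1 array under quantile normalization gave 223 to 248 higher and 99 to 137 lower calls, and with a replicate block 230 were higher and 119 lower. The unscaled higher calls ran from 254 to 285. The median ribosomal difference of -0.79 was -0.06 without scaling, -0.49 without background correction, -0.04 on log2 intensity, -1.33 on the deposited scores, -0.62 with all 16 arrays, -0.99 on all 8 arrays and -0.08 with no filter. It was -0.72 to -0.95 without 1 array and -0.23 to 0.10 unscaled without 1 array (0.03, -0.13, -0.23 and 0.10 without HuR replicates 1 to 4, and 0.09, -0.08, -0.14 and -0.08 without IgG replicates 1 to 4). Among the genes chosen by the rule, those that turned sign were RPS29 without scaling (0.01), on log2 intensity (0.01) and unscaled without 1 array (0.21, 0.09, 0.19 and 0.02), RPS19 (0.05), SNRPD2 (0.07, 0.00 and 0.00) and H2AZ1 (0.02) unscaled without 1 array, and LINC01018 with median centring (-0.17); over all 234 higher calls 17 turned sign with median centring. The number of detected probes differed by 223.8 and by 134.5 to 352.8 without 1 array, and 533.5 at p under 0.05 (exact permutation p = 0.171). The cause of these changes was not tested.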
